A study of Mus musculus with 28 samples.

Results

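The comparison of Cisplatin+ICB tumors with ICB tumors asks what cisplatin adds to the tumor transcriptome once checkpoint blockade is already given. It rests on 5 Cisplatin+ICB tumors and 5 ICB tumors, chosen by their sample labels, out of 28 tumors in the series. All were subcutaneous tumors of AB1-HA, a mouse mesothelioma line carrying the influenza hemagglutinin gene, grown on the flank of young adult female BALB/c.AusBP mice, and each sample was the whole tumor of a separate mouse. Both groups were started on treatment at a tumor area of 20 to 25 mm2 and received ICB, that is 1 intraperitoneal dose of anti-CTLA-4 and 3 of anti-PD-L1, each of 100 µg. The Cisplatin+ICB mice were in addition given cisplatin intraperitoneally at 6 mg/kg on the day ICB began. Tumors were taken 7 days after treatment began, so a single late time point was measured in a single tumor line. The other tumors used here were 4 given PBS and 4 given cisplatin alone at the same dose, which share no tumor with the 10 compared and give the cisplatin effect in the absence of ICB.

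Cisplatin is a platinum compound that binds to guanines and links the strands of DNA. Such damage stabilises the transcription factor p53, which turns on genes that halt the cell cycle, repair DNA or start apoptosis, and which also turns on Mdm2, the ubiquitin ligase that removes p53 again. Anti-CTLA-4 and anti-PD-L1 block inhibitory signals to T cells, and tumors that respond take up T cells whose interferon-gamma raises antigen presentation in tumor cells and macrophages.

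At 7 days, 13 of 27 genes known as p53 targets were higher in Cisplatin+ICB than in ICB tumors at an unadjusted p under 0.05, among them Cdkn1a and Mdm2, by 0.60 ± 0.14 and 0.63 ± 0.16 on the log2 scale (SE). At that threshold 3 of the 27 were lower, and 8.74% of all genes were higher. Markers of macrophages (9 of 15), antigen presentation (10 of 15) and dendritic cells (4 of 13), and the copper importer Slc31a1, through which cisplatin can enter cells, were lower at the same threshold, which 7.19% of all genes passed in that direction. Without Cisplatin+ICB replicate 1, a library that stood apart, these counts were 7, 4 and 1, beside 6.11% of all genes. Of the p53 targets 12 were then higher and 2 lower, beside 3.08% of all genes higher. No single gene passed adjustment over all genes in edgeR's quasi-likelihood test, so that by this main test each of these is a value with its error and not a called gene. Other tests, DESeq2 and limma voom, called 56 and 25 genes. Cdkn1a and Slc31a1 were in both sets, and Mdm2 in that of DESeq2 alone and not without replicate 1. The 10 libraries held between 27570127 and 33950805 estimated counts, with 3 counts corresponding to between 0.0884 and 0.109 CPM (estimated counts scaled by library size), a floor that covers counting error only.

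Cisplatin+ICB replicate 1 stood apart. Many of the counts and some of the fold changes are given with and without it, and where nothing is said a value includes it. It had a median correlation of log2 CPM with the other tumors of its group of 0.83, whereas the other 4 had medians of 0.967 to 0.975 and the ICB tumors of 0.955 to 0.972. Its mitochondrial share was 1.03% of counts (95% Wilson interval 1.026 to 1.033, counting error only) against 3.23 to 3.99% in the other 4, and its share of ribosomal protein genes was 14.6% against 3.68 to 4.35%. Among the shortest genes (exonic length 204 to 2228 bases) its median log2 difference from the other 4 was 0.97, and among the longest (from 6149 bases) it was -1.21. With this library the median log2 fold change of Cisplatin+ICB over ICB went from 0.29 in the shortest genes to -0.08 in the longest, and without it from -0.04 to 0.06. Its counts of Ptprc, the gene for the pan-leukocyte protein CD45, were also low at 119 CPM, but so were those of Cisplatin+ICB replicate 3, at 139 CPM. Replicate 3 correlated with its own group (median 0.967) about as well as with PBS tumors (0.964), and its mean log2 CPM of interferon-gamma response genes was 6.47, against 7.76 to 8.03 in replicates 2, 4 and 5 and 5.23 in replicate 1. For T cell receptor genes these values were 3.00, 4.79 to 5.66 and 2.54, so that the immune genes set replicates 1 and 3 apart from the other 3.

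**Figure D1:**
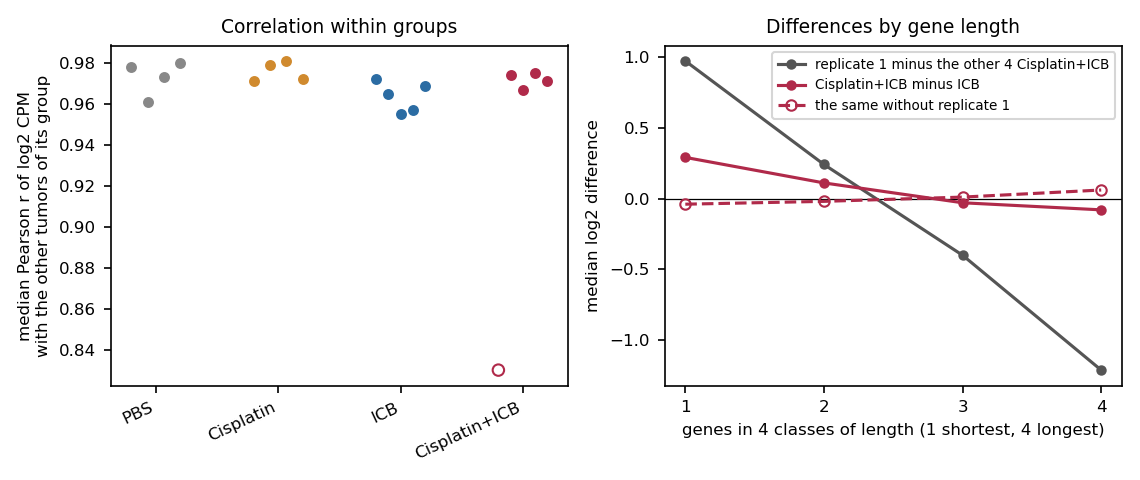
Left, for each tumor (points, by group), the median Pearson correlation of log2 CPM with the other tumors of its group, with Cisplatin+ICB replicate 1 as an open circle at 0.83. Right, median log2 differences of the genes tested in 4 equal classes of gene length (1 shortest, 4 longest), for that replicate against the other 4 Cisplatin+ICB tumors and for Cisplatin+ICB minus ICB with and without it, the last line staying between -0.04 and 0.06.

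Of 17819 genes tested with edgeR, 0 (0%) had a Benjamini-Hochberg adjusted p under 0.05 with an absolute log2 fold change over 0.5, and the smallest adjusted p was 0.291. Before adjustment, 1558 genes (8.74%) were higher and 1281 (7.19%) lower in Cisplatin+ICB tumors at p under 0.05, which is called nominally higher and nominally lower from here on. Without Cisplatin+ICB replicate 1, 0 genes were called, the smallest adjusted p was 0.414, and 548 genes (3.08%) were nominally higher and 1086 (6.11%) nominally lower. The balance thus turned with 1 library, from more higher to more lower genes, and 73.2% of the genes kept the sign of their fold change. The values of the 5 Cisplatin+ICB tumors lay wholly above those of the 5 ICB tumors for 35 genes (0.196%) and wholly below for 214 (1.2%). With the other 4 Cisplatin+ICB tumors alone, these were 104 genes (0.584%) and 548 genes (3.08%).

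Other tests called a small set of genes. DESeq2, the tool of the study, called 56 of 17271 genes (0.324%), 20 higher and 36 lower, and without replicate 1 it called 27 of 18048 (0.15%), 7 higher and 20 lower, with 20 genes in both sets. Of the 56, 53 were also tested by edgeR, and 29 of these had groups that did not overlap. Limma voom with sample quality weights gave replicate 1 a weight of 0.0532 and called 25 of 17819 genes (0.14%), 5 higher and 20 lower, of which 17 were also called by DESeq2.

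**Figure D2:**
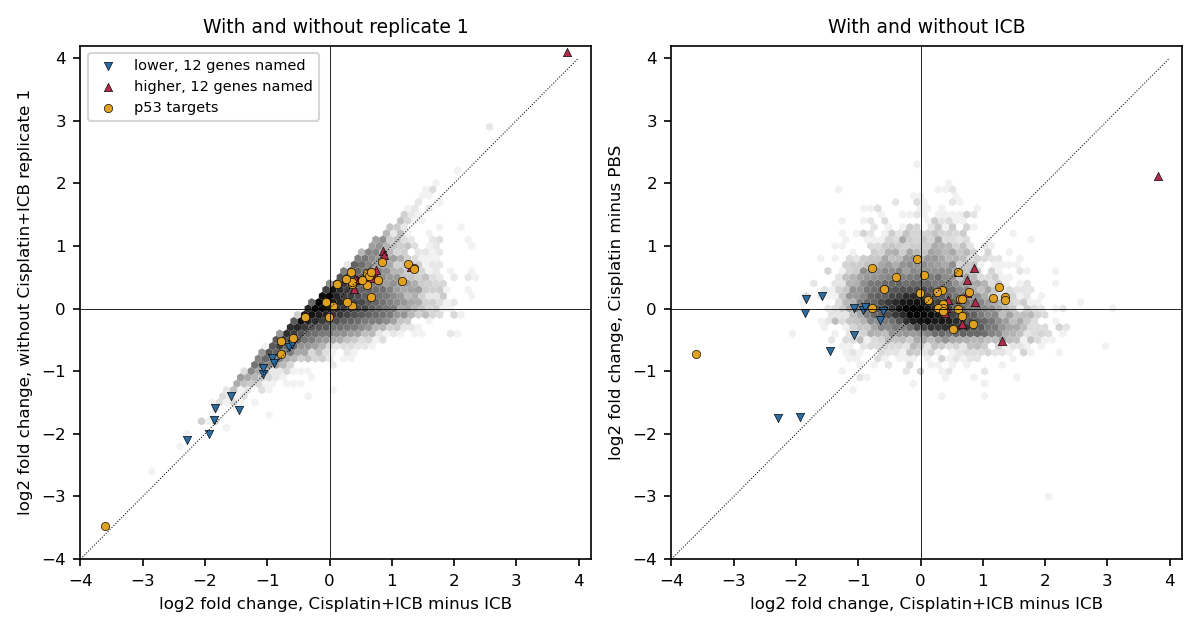
Log2 fold changes of all genes tested (grey, darker where more genes fall) for Cisplatin+ICB minus ICB on the horizontal axis, against the same without Cisplatin+ICB replicate 1 (left) and against Cisplatin minus PBS (right). Triangles mark the 12 genes named in each direction and circles the p53 targets, most of which lie above 0 on the horizontal axis; genes beyond ±4 are not drawn.

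The p53 targets were the list with the most genes nominally higher. Cdkn1a and Mdm2 were the 2 targets whose groups did not overlap, both higher, as were 0.196% of all genes, and they were chosen for promoter windows for that reason. Of their windows, only those that held a p53 half-site are shown. In the promoter windows of RefSeq (GRCm38.p6, 250 bases before to 50 after each start), the 10-base p53 half-site consensus, which reads the same on both strands, was searched, as well as the full site of a pair of half-sites separated by at most 13 bases. Capitals mark each half-site.
Cdkn1a, chr17:29090729-29091028, plus strand: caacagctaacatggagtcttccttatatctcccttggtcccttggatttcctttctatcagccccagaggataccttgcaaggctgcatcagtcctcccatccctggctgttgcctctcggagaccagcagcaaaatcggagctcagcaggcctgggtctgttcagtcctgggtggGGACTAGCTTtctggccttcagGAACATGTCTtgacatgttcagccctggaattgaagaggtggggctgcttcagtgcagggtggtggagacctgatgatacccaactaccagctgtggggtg
Mdm2, chr10:117710709-117711008, minus strand: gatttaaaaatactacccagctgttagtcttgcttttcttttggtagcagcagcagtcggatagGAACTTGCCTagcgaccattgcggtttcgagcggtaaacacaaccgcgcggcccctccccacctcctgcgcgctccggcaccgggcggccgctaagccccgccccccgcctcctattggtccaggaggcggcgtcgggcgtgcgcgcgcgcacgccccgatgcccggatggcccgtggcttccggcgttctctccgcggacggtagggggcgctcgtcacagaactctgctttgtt
The Cdkn1a window held 2 half-sites, starting at its bases 178 and 200, which together make a full site, and the Mdm2 window held 1, starting at base 65. A half-site was found in 8.36% and a full site in 0.0731% of all 32851 windows. Of the 27 targets, 21 were matched to a window, and 10 of their 32 windows held a half-site, 1 of them a full site. A match of letters is no measure of binding, and p53 sites outside these windows were not looked for.

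Cdkn1a, which encodes p21, the inhibitor of cyclin-dependent kinases, had 261, 236, 187, 205 and 221 CPM in Cisplatin+ICB replicates 1 to 5 and 129, 163, 119, 162 and 162 CPM in ICB replicates 1 to 5. The groups did not overlap, with or without replicate 1. The log2 fold change was 0.60 ± 0.14 (SE) with an edgeR adjusted p of 0.291, and 0.56 ± 0.14 without replicate 1. DESeq2 called it with and without replicate 1 (adjusted p = 0.00558 and 0.0262), as did voom (adjusted p = 0.0392). In the absence of ICB, cisplatin tumors had 177, 219, 216 and 230 CPM and PBS tumors 143, 155, 128 and 135 CPM, a log2 fold change of 0.58. The difference between the cisplatin effects with and without ICB was 0.01 ± 0.21 (SE).

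Mdm2 had 140, 98.2, 90.5, 81.4 and 94.9 CPM in Cisplatin+ICB and 65.2, 55.6, 55.2, 78.4 and 71.8 CPM in ICB tumors. The groups did not overlap, and replicate 1 was the highest. Its log2 fold change was 0.63 ± 0.16 with all tumors and 0.51 ± 0.14 without replicate 1, and DESeq2 called it only with that library (adjusted p = 0.0307 and 0.0789). Polk, a polymerase that copies across damaged bases, had 33.1, 21.5, 31, 19.6 and 22.2 CPM against 17.8, 13.2, 13.5, 20.4 and 14.9 CPM in ICB tumors. Its log2 fold change was 0.67 ± 0.18, and 0.58 ± 0.16 without replicate 1, though ICB replicate 4 lay above the lowest Cisplatin+ICB tumor. Plk2, a kinase that acts at centrioles, had 93.5, 85.3, 79.1, 69.1 and 53.7 CPM against 55.6, 65.7, 38.9, 58.6 and 47.5 CPM, a log2 fold change of 0.52 ± 0.17, with Cisplatin+ICB replicate 5 inside the ICB range.

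Replicate 1 drew up several other targets. Phlda3, an inhibitor of the kinase Akt, had 290 CPM in replicate 1 and 58.7 to 82.7 CPM in the other 4, against 33.2 to 59.4 CPM in ICB tumors, so its log2 fold change of 1.35 ± 0.37 became 0.65 ± 0.17 without that library. Eda2r, a receptor of the TNF receptor family, went from 1.26 ± 0.37 to 0.71 ± 0.26, and Bax, a pore-forming protein of apoptosis, from 0.67 to 0.19. The other genes nominally higher were Ccng1, Bbc3 (the apoptosis activator Puma), Gdf15, Aen, Psrc1 and Ak1, with log2 fold changes of 0.36 to 1.36. Of these 13 genes, Bax, Gdf15, Psrc1 and Ak1 were not nominally higher without replicate 1, while Tnfrsf10b, Zmat3 and Ercc5 then were, with log2 fold changes of 0.40, 0.58 and 0.47.

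The list as a whole had a median log2 fold change of 0.36 beside 0.04 over all genes. Of the 27, 13 were nominally higher and 3 nominally lower, beside 8.74% and 7.19% of all genes. Without replicate 1 the median was 0.40 beside 0.01, with 12 higher and 2 lower, beside 3.08% and 6.11% of all genes. Leaving out any 1 of the 10 tumors left 11 to 14 targets higher. The 3 lower genes were Sesn1, a sestrin that restrains mTORC1 (-0.78 ± 0.25), Btg2, an antiproliferative gene (-0.59 ± 0.26), and Perp (-3.60 ± 1.33). Perp is also an adhesion gene of epidermis, and it was at 43.6 CPM in ICB replicate 2, the tumor with the most keratinocyte RNA, and at most 2.87 CPM in the other 9.

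Averaged over the list, p53 target expression was 4.94 ± 0.13 (mean log2 CPM, SD, n = 5) in Cisplatin+ICB, 4.64 ± 0.08 (n = 5) in ICB, 4.93 ± 0.07 (n = 4) in cisplatin and 4.78 ± 0.13 (n = 4) in PBS tumors. The Cisplatin+ICB tumors lay between 4.82 and 5.14 and the ICB tumors between 4.55 and 4.75, without overlap. PBS tumors, which got no cisplatin, thus had a mean above that of ICB tumors, and for Plk2 (mean 121 CPM), Aen, Phlda3 and Polk (29.1 CPM) they were above every ICB tumor. Ptprc was at 74.5 to 105 CPM in PBS tumors and ranged from 244 to 447 CPM in ICB and from 119 to 363 CPM in Cisplatin+ICB tumors, and its part in the p53 target levels was not tested.

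**Figure D3:**
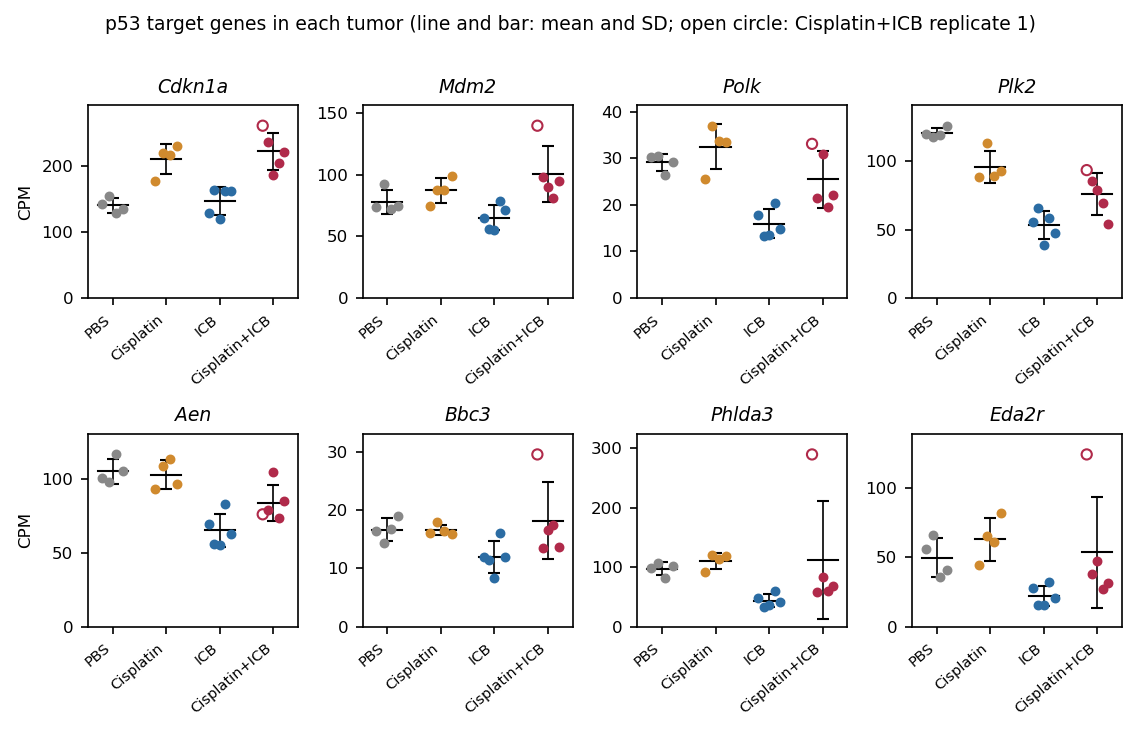
CPM (linear axis from 0) of 8 p53 target genes in each tumor of the 4 groups, with the mean and SD in black and Cisplatin+ICB replicate 1 as an open circle. Cdkn1a and Mdm2 do not overlap between ICB and Cisplatin+ICB, Phlda3 and Eda2r are drawn up by the open circle, and PBS tumors sit near or above ICB tumors in most panels.

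In the absence of ICB, where 232 genes (1.3%) were nominally higher and 85 (0.477%) nominally lower and 0 passed adjustment in edgeR (4 in DESeq2), 2 of the 27 targets were nominally higher with cisplatin, Cdkn1a and Trp53inp1, and the median was 0.16. Trp53inp1, a p53 cofactor in apoptosis, had means of 47.2 CPM in cisplatin and 27.3 CPM in PBS tumors, but 46.1 and 48.0 CPM in Cisplatin+ICB and ICB tumors. Its effects differed by -0.85 ± 0.30. The difference of the cisplatin effects was nominally above 0 for 663 genes (3.72%) and below 0 for 610 (3.42%), with 0 genes past adjustment in edgeR (smallest adjusted p 0.564) and 1 in DESeq2. Among the p53 targets it was nominally above 0 for 2 genes, Plk2 (0.85 ± 0.25) and Phlda3, and below 0 for 3, Trp53inp1, Btg2 and Sesn1.

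Genes that repair platinum damage had small median fold changes. Of 15 nucleotide excision repair genes, which cut out adducts on 1 strand, 1 was nominally higher, Ddb2 (0.98 ± 0.47, and 0.18 without replicate 1), and the median was 0.13. Without replicate 1 the median was 0.11 and Ercc5, an endonuclease also counted with the p53 targets, was the only one nominally higher. Of 23 genes of crosslink repair and recombination, 5 were nominally higher, beside 8.74% of all genes, and none was lower. Fancb, Fancl, Ube2t and Rev1 were among the 5, and the list median was 0.24. Without Cisplatin+ICB replicate 1 the list median was 0.28 with 0 genes nominally higher, beside 3.08% of all genes. The count was 1 without ICB replicate 2 or 3, 3 without ICB replicate 5 and 8 without ICB replicate 4. Without Cisplatin+ICB replicate 1, Ube2t, the E2 enzyme of the Fanconi pathway, went from 1.69 to 0.26.

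Among genes of platinum transport, Slc31a1 (chr4:62360727-62391769, plus strand), which encodes the copper importer CTR1, had 70.7, 79.4, 61.3, 78.1 and 75.5 CPM in Cisplatin+ICB tumors and 102, 110, 113, 95 and 136 CPM in ICB tumors. Every Cisplatin+ICB tumor was below every ICB tumor. The log2 fold change was -0.61 ± 0.13 (edgeR adjusted p = 0.291) and -0.57 ± 0.14 without replicate 1, and the gene was called by DESeq2 with and without that library (adjusted p = 0.00476 and 0.0252) and by voom (adjusted p = 0.0392). PBS and cisplatin tumors had means of 68 and 66.5 CPM, so ICB tumors were the group with the higher level. The effects of cisplatin with and without ICB differed by -0.58 ± 0.20. Slc31a1 is among the genes picked by their values in Cisplatin+ICB and ICB tumors, which enter this difference, so no p is given for it. The other 5 transport genes tested, Slc31a2, Atp7a, Abcc4, Lrrc8a and Lrrc8d, passed no threshold, and the list had a median of -0.39, or -0.16 without replicate 1. Atp7b, Slc22a2, Slc47a1 and Abcc2, with at most 22 counts in any of the 10 tumors, were too low to be tested.

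Stress and metabolic genes were divided, and their counts stand beside 8.74% of all genes nominally higher and 7.19% nominally lower. Of 14 NRF2 targets and metallothioneins, which handle oxidants and metals (median -0.24), Nqo1 was nominally higher and Hmox1, Gstm1 and G6pdx nominally lower, and without replicate 1 G6pdx alone was left (-0.36). Of 12 genes of the integrated stress response (median 0.22), Atf4 and Chac1 were nominally higher and Atf3 lower (-0.98 ± 0.38), with Chac1, a glutathione-degrading enzyme, at 0.78 with and 0.80 without replicate 1. Slc2a1, Gpi1 and Pfkl, which take up glucose and begin its breakdown, were nominally lower among 16 glycolytic genes (median -0.26 with and without replicate 1). The 16 HIF-1 targets had a median of -0.08, with Ankrd37 nominally higher and Slc2a1 lower, and neither was without replicate 1.

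Of 23 mitotic and S phase genes (median 0.40), Cdk1, Ccnb2, Birc5 and Tyms were nominally higher, beside 8.74% of all genes. The count turned on single tumors of both groups, with 0 of 23 without Cisplatin+ICB replicate 1 (median 0.22) or ICB replicate 2 (0.26), 1 without ICB replicate 3, 2 without ICB replicate 5, 6 without Cisplatin+ICB replicate 2 or 4, and 13 without ICB replicate 4. In Cisplatin+ICB replicate 1, Cdk1, the kinase that drives mitosis, was at 693 CPM against 84.3 to 122 CPM in the other 4 and 48.6 to 130 CPM in ICB tumors.

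The 12 genes named in each direction were those with the smallest p among genes with a mean count of at least 50, an assigned gene name and groups that did not overlap. After Cdkn1a and Mdm2, the higher ones include Fgf23, a phosphate-regulating hormone made mainly in bone, which had 0.479, 0.674, 3.63, 1.37 and 8.54 CPM against 0.307, 0.346, 0.159, 0.091 and 0.113 CPM in ICB tumors. It was low in all tumors, and the 2 highest were Cisplatin+ICB replicates 5 and 3. ICB replicate 4, at 0.091 CPM, was about at its floor of 0.0955 CPM, which is taken from total counts without TMM scaling. The gene reached its mean count of 50.2, just over the minimum of 50, through the Cisplatin+ICB tumors, so no fold is given. Cisplatin tumors (0.836 to 3.19 CPM) were also above PBS tumors (0.144 to 0.776 CPM) for this gene.

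Inka2, an inhibitor of the kinase Pak4, had 7.05 to 10.7 CPM in Cisplatin+ICB and 2.65 to 6.16 CPM in ICB tumors (log2 fold change 0.86 ± 0.21, and 0.92 ± 0.20 without replicate 1), and it was nominally higher in cisplatin than in PBS tumors as well (0.64). Cd80, the ligand of CD28 and CTLA-4, had 56.7 CPM in replicate 1 and 25.8 to 29.3 CPM in the other 4, against 17.7 to 23.2 CPM in ICB tumors. Inhba, the activin A subunit, had 101 to 125 CPM against 61.7 to 94.6 CPM (0.42 ± 0.17). Arhgdig, the noncoding RNA Lncenc1, Vps33b, Lins1 and Rab39b had log2 fold changes of 0.39 to 1.31, of which Arhgdig went to 0.66 without replicate 1. The mean count of Arhgdig, 52.6, was just over the minimum and rested mainly on replicate 1 (7.07 CPM). It was low elsewhere, at 1.35 to 2.54 CPM in the other 4 and 0.917 to 1.25 CPM in ICB tumors. DESeq2 called 5 of the 12 with all tumors, among them Fgf23, Cdkn1a, Inka2 and Mdm2, and 3 without replicate 1, and Cdkn1a alone was called by voom.

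Other tests called more of the 12 lower genes than of the 12 higher ones. Both sets were picked by p and lack of overlap in these same tumors, so the calls are no independent support. All 12 lower genes were called by DESeq2 with all tumors, 9 of them without replicate 1 and 11 by voom, and 9 by all of these. Lmo2, Galc and Hpse lost the DESeq2 call without replicate 1, and Hpse was not called by voom. Crym, a thyroid hormone-binding protein, had 0.479, 1.16, 0.443, 1.3 and 0.935 CPM in Cisplatin+ICB tumors. In ICB tumors it had 3.21, 3.72, 6.58, 2.7 and 5.03 CPM (-2.28 ± 0.42). Its mean count of 74.2 came mostly from the ICB tumors, so this fold rests on low counts in Cisplatin+ICB tumors. Fxyd2, a regulator of the sodium pump, had 2.09 to 3.62 CPM against 5.09 to 22.1 CPM (-1.93 ± 0.37). Crym and Fxyd2 were also nominally lower with cisplatin in the absence of ICB, by -1.74 and -1.73. For Fxyd2 the difference of the effects was -0.20 ± 0.55.

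For the rest of the lower genes the cisplatin effect in the absence of ICB passed no threshold. Clec9a, a receptor for dead cells on cross-presenting dendritic cells, had 1.22, 5.42, 1.92, 6.27 and 2.93 CPM in Cisplatin+ICB and 11.4, 13.9, 13, 10.2 and 15.3 CPM in ICB tumors. The lowest ICB tumor was thus well above the highest Cisplatin+ICB tumor, and PBS tumors were at 1.19 to 1.48 CPM. Its log2 fold change was -1.84 ± 0.37 and -1.59 ± 0.33 without replicate 1, and the difference of the effects was -1.99 ± 0.55. The gene was picked by its values in Cisplatin+ICB and ICB tumors, which enter this difference, so no p is given for it. Over all genes the smallest adjusted p of the difference was 0.564 in edgeR. Fam167b (-1.45 ± 0.30), Lmo2, a hematopoietic and endothelial transcription cofactor (-1.06 ± 0.23), Mb21d2 (-0.65 ± 0.14), Clca2 and Ahrr, the repressor of the aryl hydrocarbon receptor, were lower too. So were 3 genes of degradative enzymes, the lysosomal protease Ctsf (-1.06 ± 0.23), the galactosylceramidase Galc (-0.92 ± 0.21) and the heparanase Hpse (-0.89 ± 0.21). Of these genes, Clca2 and Ahrr were low in Cisplatin+ICB tumors (means 0.954 and 1.49 CPM), with mean counts of 67.4 and 89.2.

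Macrophage markers were nominally lower in 9 of 15 genes, beside 7.19% of all genes, and higher in 0, with a list median of -0.93. Without replicate 1 they were lower in 7, beside 6.11% of all genes, with a list median of -0.77. Ptprc, which all leukocytes express, was lower by less, with a log2 fold change of -0.59 ± 0.30 that did not pass the threshold, and its part in this and the following immune lists was not tested. In whole tumors, fewer cells of a type and less RNA per cell cannot be told apart. Csf1r, the receptor that macrophages need to survive, had 54.5, 415, 305, 477 and 449 CPM in Cisplatin+ICB and 687, 878, 1450, 557 and 1090 CPM in ICB tumors. The groups did not overlap, and PBS and cisplatin tumors had means of 294 and 248 CPM. Its log2 fold change was -1.45 ± 0.42 and -1.15 ± 0.27 without replicate 1, and DESeq2 called it without that library (adjusted p = 0.0252) and not with it (adjusted p = 0.08).

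The complement gene C1qc had 194, 581, 342, 777 and 738 CPM against 1130, 1420, 2030, 693 and 1580 CPM in ICB tumors, with ICB replicate 4 inside the Cisplatin+ICB range (-1.38 ± 0.38, and -1.14 ± 0.36 without replicate 1). Fcgr1, the high-affinity IgG receptor, did not overlap between the groups, at 53.4 to 92 CPM against 94.1 to 148 CPM (-0.67 ± 0.25). Cd68, C1qa, C1qb, Adgre1 and Apoe were among the others nominally lower. In the absence of ICB 0 of 15 were nominally higher or lower with cisplatin (median 0). For 5, among them Adgre1, Mrc1, C1qc and Cd163, the difference of the effects was nominally below 0, beside 3.42% of all genes. Trem2, a lipid receptor, joined the lower genes without replicate 1, and Adgre1 and Apoe were among those that left them.

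Monocyte markers differed from this. Of the 6 tested (median 0.16), 0 were nominally higher or lower, with Ccr2, the receptor that brings monocytes into tissue, at 0.11 ± 0.33. In the absence of ICB, 2 were nominally higher with cisplatin, beside 1.3% of all genes. Among 8 neutrophil markers (median 0.25) S100a9 was nominally higher and Csf3r and Mmp9 lower, beside 8.74% and 7.19% of all genes. Without replicate 1, 0 of the 8 were. In the absence of ICB 2 of the 8 were nominally higher with cisplatin (median 0.93), beside 1.3% of all genes. For 2, Csf3r and Mmp8, the difference of the effects was nominally below 0, beside 3.42% of all genes.

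Of 13 dendritic cell markers, 4 were nominally lower (Clec9a, Xcr1, Ccr7 and Batf3), with a median of -0.99, and 12 had a fold change below 0. Clec9a, Xcr1 and Batf3 mark the cross-presenting subset, and Ccr7 the dendritic cells that migrate to lymph nodes. Xcr1 had 1.91 to 6.95 CPM against 5.24 to 15.1 CPM in ICB tumors. Without replicate 1 Clec9a was the only one of the 13 left, a share near the background, and the median was -0.79. Without Cisplatin+ICB replicate 3, ICB replicate 2 or ICB replicate 3 the count was 2, and without ICB replicate 4 it was 7.

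All 15 antigen presentation genes had a fold change below 0 (median -0.67), 10 of them nominally, beside 7.19% of all genes. Without replicate 1 the count was 4 (Tap1, Cd74, H2-Aa and H2-DMa), beside 6.11%, with a list median of -0.51. It was 6 without replicate 3. H2-Aa, a chain of the class II molecule, had 628, 2040, 634, 2380 and 1940 CPM against 3290, 4630, 5630, 1540 and 5370 CPM in ICB tumors. Cisplatin+ICB replicates 1 and 3 were the lowest, and ICB replicate 4, the lowest of its group, lay below the other 3. The log2 fold change was -1.43 ± 0.49, and the 4 class I and transport genes nominally lower, H2-K1, H2-D1, B2m and Tap1, had smaller ones of -0.55 to -0.67. Every tumor of both groups was above the PBS tumors, which had 195 to 523 CPM of H2-Aa. For 6 of the 15 genes, Cd74, H2-Aa, H2-Ab1, H2-Eb1, H2-DMa and H2-DMb1, all of the class II pathway, the effects of cisplatin with and without ICB differed nominally, each below 0. The share of all genes with such a difference below 0 was 3.42%.

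The 16 genes of the interferon-gamma response were all below 0 as well, with a median of -0.73. Of these, 4 were nominally lower, among them Irf1, Socs1 and Ciita, beside 7.19% of all genes. Ciita, the activator of class II genes, had 11.1, 66.4, 39, 93.8 and 62.9 CPM against 145, 173, 180, 92.3 and 151 CPM in ICB tumors. ICB replicate 4 lay just below the highest Cisplatin+ICB tumor, and the other 4 ICB tumors were above all of them. Its log2 fold change was -1.44 ± 0.47, and its cisplatin effect was 1.13 in the absence of ICB, a difference of -2.57 ± 0.71 (unadjusted p = 0.00205). Irf1, a transcription factor induced by interferon-gamma, had a log2 fold change of -0.62 ± 0.26. Without replicate 1, 2 genes including Ciita were left nominally lower and the median was -0.45. The 12 type I interferon-stimulated genes had a median of -0.13 with 0 past the threshold.

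T cell genes did not separate the groups. All 14 genes of the T cell receptor complex and coreceptors had fold changes below 0 (median -0.86, and -0.59 without replicate 1), but 0 were nominally lower, since the Cisplatin+ICB tumors spread widely. Cd8a, the coreceptor of cytotoxic T cells, had 2.82, 56.5, 7.56, 79.1 and 109 CPM against 85.6, 89.3, 187, 63.9 and 129 CPM in ICB tumors (-1.12 ± 0.67). Replicates 1 and 3 were near the PBS mean of 5.2 CPM and the other 3 within or just below the ICB range.

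Among 7 markers of regulatory T cells (median -0.42) Ccr8, a chemokine receptor, was nominally lower (-1.44 ± 0.52). Among 15 cytotoxic effector and NK genes (median -0.42) the activating receptor Klrk1 was (-0.85 ± 0.37), and not without replicate 1. That is 1 of 15, near the 7.19% of all genes nominally lower. Among 10 checkpoint genes (median -0.78) Lag3, Pdcd1lg2 and Cd96 were nominally lower. Lag3 had 2.71, 29.2, 7.89, 36.4 and 42.6 CPM against 38.3, 55, 125, 52.6 and 76.9 CPM (-1.55 ± 0.52), with Cisplatin+ICB replicate 5 inside the ICB range, and it was the only checkpoint gene left without replicate 1. The chemokine Ccl5 and the cytokine Il1b were nominally lower of 15 inflammatory genes (median -0.58). Of 9 B cell markers (median 0.04), Cd79a was nominally higher (0.82 ± 0.28) and Cd22 lower, beside 8.74% and 7.19% of all genes.

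**Figure D4:**
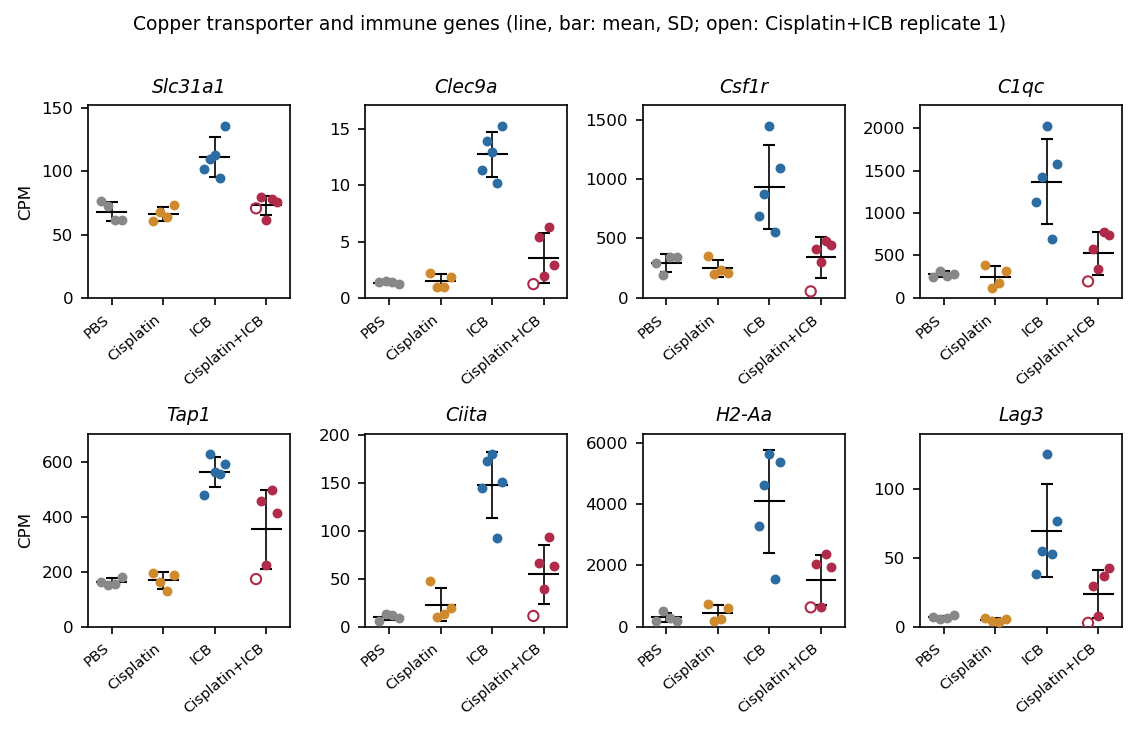
CPM (linear axis from 0) of Slc31a1, Clec9a and 6 genes of macrophages, antigen presentation and its activation, and checkpoints in each tumor, with the mean and SD in black and Cisplatin+ICB replicate 1 as an open circle. The ICB group has the highest mean in every panel, and the Cisplatin+ICB mean lies between it and those of PBS and cisplatin tumors, closest to them for Slc31a1 and Csf1r.

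Among other cells of the tumor, endothelial markers were nominally lower in 3 of 8 genes (Pecam1, Emcn and Esam, median -0.73), and in 4 without replicate 1, when Cldn5 joined them. The shares of all genes were 7.19% and 6.11%. Emcn, an endothelial sialomucin, had 4.7 to 8.93 CPM against 6.94 to 13.2 CPM (-0.70 ± 0.24, and -0.81 ± 0.25 without replicate 1). The 12 fibroblast and matrix genes had a median of -0.08 with 0 past the threshold. Of the 6 mesothelial and epithelial markers tested (median 0.26), which check the labelled mesothelioma, Msln was plainly present, at 52.4 to 216 CPM in ICB and 131 to 656 CPM in Cisplatin+ICB tumors with replicate 1 the highest, whereas Wt1 was at most 1.93 CPM and Calb2 at most 0.788 CPM. Krt18, Lrrn4 and Upk3b had at most 13 counts. Msln was nominally higher with replicate 1 (1.30 ± 0.44) and not without it (0.67 ± 0.33), and Krt8 likewise (2.37 ± 0.93 and 1.04).

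**Figure D5:**
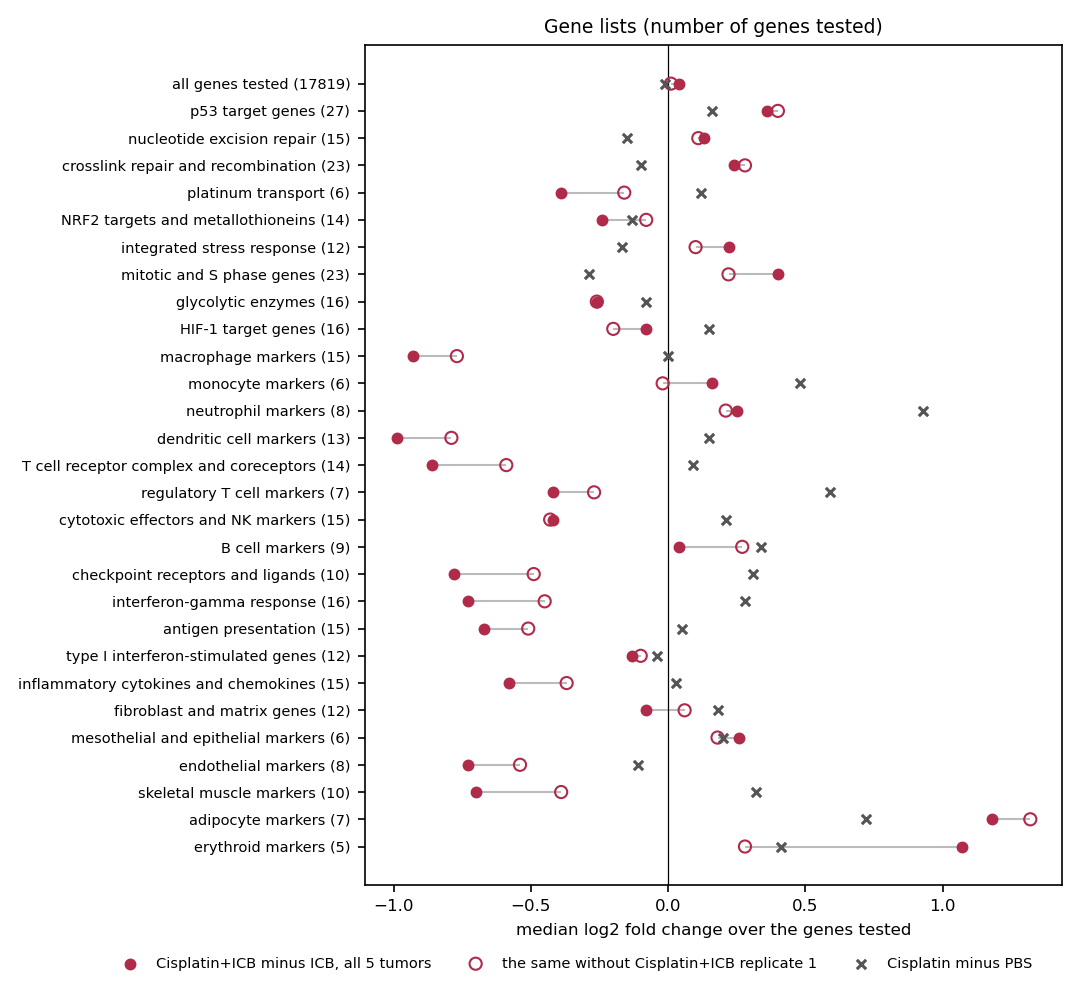
Median log2 fold change of each gene list (number of genes tested in brackets) for Cisplatin+ICB minus ICB with all 5 tumors (filled), without Cisplatin+ICB replicate 1 (open) and for Cisplatin minus PBS (crosses), with all genes tested in the top row. The p53 targets lie to the right of 0 with and without that replicate (0.36 and 0.40), and macrophage, dendritic cell and antigen presentation lists lie to the left. The crosses of these 4 lists lie at 0.16, 0, 0.15 and 0.05, in that order. Keratinocyte markers (-4.13) are left out of the scale.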

How the data were processed

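Whole tumors were sequenced as 100-base single-end reads on an Illumina HiSeq. The authors used bcl2fastq 2.20.0.422 and kallisto 0.46.0 against GRCm38/mm10 and tximport, and deposited estimated counts per gene without normalization. Of the values, 23.8% were not whole and were rounded. Of 55341 names, 55315 were found in GENCODE M21, and 26 were date-like.

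Genes were filtered with filterByExpr, normalized by TMM and tested with edgeR 4.0.16 (quasi-likelihood) over 18 tumors in 4 groups (R 4.3.3), with limma 3.58.1 voom weights and DESeq2 1.42.0 as alternatives. The last is the tool of the study, while edgeR was the test set for counts here. After Benjamini-Hochberg adjustment, genes were called at an adjusted p under 0.05 where the log2 fold change also exceeded 0.5 in size. CPM use TMM library sizes, except for the floor, which uses total counts, and log2 CPM a prior count of 2. The difference of effects was (Cisplatin+ICB minus ICB) minus (Cisplatin minus PBS). The procedure was tested on simulated data.

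The groups, the 29 gene lists and the rule for named genes were chosen with earlier results of these data known. Per list, genes past the unadjusted threshold (at most 6), or else the 2 with the highest level, were to be named, beside the 12 genes in each direction described above and genes called by both DESeq2 and edgeR without Cisplatin+ICB replicate 1, of which there were 0. Members named beyond this (of the p53, repair, transport, macrophage, neutrophil, antigen presentation, mesothelial, endothelial and adipocyte lists) were chosen after their values were seen. Alternatives were the settings given in the closing section. The counts of list genes under them, and the replicate block without Cisplatin+ICB replicate 1, were added after seeing the data. Tumors given 5-FU were not used here.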

Additional observations from a re-analysis of the deposited data

Results flagged for a closer look

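In a group of 5 tumors, a value was singled out when its gap to the nearest other tumor took up more than Dixon's critical share of the range. Of 112 sets of 5 values (24 named genes, 29 gene lists and 3 library measures in both groups), 11 held such a tumor, where chance gives about 1 in 20.

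Of the 11, 7 were Cisplatin+ICB replicate 1. It was far below the other 4 tumors of its group in the mitochondrial share (1.03%), in the mean log2 CPM of platinum transport genes (4.14) and in that of fibroblast and matrix genes (6.11), and far above them in the ribosomal protein share (14.6%), Mdm2 (140 CPM), Cd80 (56.7 CPM) and Arhgdig (7.07 CPM). Cisplatin+ICB replicate 3 was far above its group for Inka2 (10.7 CPM). ICB replicate 3 was far below its group for Lins1 (6.78 CPM), ICB replicate 1 for the mean log2 CPM of glycolytic enzymes (8.39) and ICB replicate 4 for that of cytotoxic effectors and NK markers (3.85).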

How the results depend on the processing

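In edgeR, Cisplatin+ICB against ICB, the difference of the effects and cisplatin against PBS gave 0 called genes under every filter, scaling, block and left-out tumor tried (0 to 0 with 1 tumor left out). DESeq2 called 56, 1 and 4 genes, voom 25, 3 and 1, and DESeq2 without Cisplatin+ICB replicate 1 27, 2 and 6. The count of genes at an unadjusted p under 0.05 (2839) moved to 1099 in a model of the 2 groups alone, to 1836 when that model lacked Cisplatin+ICB replicate 1, and to between 1634 and 4003 with 1 tumor left out. Its higher part went to 572 and 561 under the same 2 settings, to 971 with voom, to 695 with DESeq2 lacking replicate 1, and to between 548 and 2460 with 1 tumor left out. The lower part went to 527 in the model of the 2 groups, to 847 with at least 10 counts in every tumor, and to between 734 and 1612 with 1 tumor left out. Beside Cisplatin+ICB replicate 1, the tumors that moved the higher count by over 1.5 times were ICB replicates 2, 3 and 5 (878, 943 and 919) and Cisplatin+ICB replicate 5 (2460), and for the lower count ICB replicate 3 (734) and Cisplatin+ICB replicate 3 (841). The causes were not tested.

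The deviations of same-numbered tumors of both groups from their group means had correlations of 0.25, 0.15, -0.09, -0.18 and 0.04. With so few pairs, these values cannot decide whether same-numbered tumors were handled together. With the replicate number as a block, edgeR called 0 genes. At an unadjusted p under 0.05 were 1876 genes against 2839 without the block, of which 714 against 1558 were higher. Without Cisplatin+ICB replicate 1 the block gave 1509 and 612.

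Leaving out 1 tumor moved the mean difference in mitochondrial share from -0.52 to between -0.752 and -0.003 percentage points, and that in total counts from -974000 to between -1550000 and -28000. Over all alternative settings, which include the other tests and the replicate block, 11 of the 103 named genes changed sign in at least 1. Keratinocyte markers rested on ICB replicate 2, without which 0 of 5 were nominally lower and the median went from -4.13 to -0.02. Without ICB replicate 3 the skeletal muscle median went from -0.70 to 2.27 and the adipocyte median from 1.18 to 2.70. With 1 tumor left out, nominally lower genes numbered 6 to 11 for macrophage, 4 to 11 for antigen presentation, 1 to 7 for dendritic cell and 0 to 10 for T cell receptor genes. The design of 5 tumors against 5 limits exact permutation tests of library measures to p of at least 0.00794.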

Other observations

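In some lists of other tissues, single tumors set the values. Keratinocyte markers were nominally lower in 4 of 5 genes (median -4.13), beside 7.19% of all genes. Their summed level was 491 CPM in ICB replicate 2, 13 CPM in ICB replicate 3 and at most 7.08 CPM in the other 8 tumors. Krt14, a keratin of the basal epidermis, was at 242 CPM in ICB replicate 2. Skeletal muscle markers summed to 3950 CPM in ICB replicate 3 and 2.49 CPM in ICB replicate 4, and to between 93.4 and 1060 CPM in Cisplatin+ICB tumors, with 0 of 10 genes past the threshold, or 6 nominally higher without ICB replicate 3. All 7 adipocyte markers had fold changes above 0 (median 1.18), and 0 were nominally higher, or 1 without Cisplatin+ICB replicate 1 (Retn, 1.79). Without ICB replicate 3 all 7 were nominally higher (median 2.70). The source of this RNA was not tested.

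Erythroid markers, a measure of blood in the sample, were nominally higher in 2 of 5 genes (median 1.07), beside 8.74% of all genes. The 2 were Hbb-bs (1.77 ± 0.82) and Hbb-bt (2.03 ± 0.91). Hbb-bs was at 389 CPM in Cisplatin+ICB replicate 1 and 15.7 to 81.8 CPM in the other 4, and without that library the values were 0.23 and -0.11. Without ICB replicate 3 all 5 erythroid markers were nominally higher (median 1.93), and without ICB replicate 1, 2, 4 or 5 none was. Mean Ptprc was 244 ± 109 CPM in Cisplatin+ICB and 366 ± 84.5 CPM in ICB tumors (SD, n = 5 each, two-sided exact permutation test p = 0.0952).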
